A study of Mus musculus with 12 samples.

Results

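The livers of 2 kinds of hepatobiliary YAP1 knockout were compared directly with each other: YAPKO TAZHET livers, which lack YAP1 and carry 1 intact copy of Wwtr1 (the gene for TAZ), against YAPKO livers, which lack YAP1 and keep both copies. The members of this comparison were the genes with at least 1 TPM (transcripts scaled to the library's total) in at least 3 of the 6 knockout libraries, and 11918 of the 41743 genes listed met that rule. All mice were females of 3 to 4 months, each library was made from the whole frozen liver of a separate mouse, and each group held 3 mice. The YAPKO mice (LM74, LM189 and LM191) were Foxa3-Cre, Yap1 fl/fl, with a ROSA-stop-EYFP reporter, on C57BL/6. The YAPKO TAZHET mice (LM225, LM250 and LM251) were Foxa3-Cre, Yap1 fl/fl, Wwtr1 fl/+, and descended from a different floxed line, on FVB, that was crossed to C57BL/6, so their background was mixed. Each knockout had 3 WT littermates of its own background, in which the same 2 backgrounds could be compared without a deletion. Foxa3-Cre acts in the foregut endoderm, from which hepatocytes and bile duct cells derive, and it leaves the other cells of the liver with their Yap1 and Wwtr1. The difference in TAZ dose, the difference in background and the different floxed line coincide in these 6 mice and cannot be told apart.

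YAP and TAZ are the paired coactivators at the end of the Hippo pathway. They have no DNA-binding domain and act mainly through the TEAD transcription factors, whose best known targets include Ccn1 (Cyr61) and Ccn2 (Ctgf). In the liver the pathway is known for its part in forming bile ducts and in the response to injury.

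Each library summed to 1000000 TPM, and no counts were used. The paper gives the same sequencing depth for every sample, and the depth that each library reached is unknown. The 12 libraries each held values above 0 for 14442 to 15047 genes. The scaling factors of the knockout libraries lay between 0.956 and 1.07. Differences are on the log2(scaled TPM + 1) scale, YAPKO TAZHET minus YAPKO, with their standard errors, and a gene is called where its limma p-value, adjusted by the method of Benjamini and Hochberg over all 11918 genes, is under 0.05. The median difference over all genes was 0.00. The mice of a group differed among themselves nearly as much as the groups did. The SD of the log2 difference over all genes was 0.28 to 0.40 for the 3 pairs of YAPKO TAZHET mice, 0.35 to 0.43 for the 3 pairs of YAPKO mice, and 0.39 to 0.49 for the 9 pairs across the groups. LM225 stood 0.39 and 0.40 from the other two YAPKO TAZHET mice, which were 0.28 from each other.

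Of the genes tested, 23 were called, which is 0.193% of all tested, and in each of the 23 the 3 mice of one group lay wholly above the 3 of the other. YAPKO TAZHET livers had higher levels of 18 of them and lower levels of 5. The balance rested on single mice: without LM225, 15 genes were higher and 25 lower, without LM74 20 and 18, and without LM251 6 and 5. The genes that rose were Tead2, Cd37, Slc6a16, Yap1, Casp4, Ada, Atp6v0e2, Tcp11l1, Ifi202b, Cyp3a41a, Cd1d2, the MHC-region genes H2-T10, H2-Bl, Gm11127 and Gm8909, and Ftl1-ps1, Rps18-ps5 and Gm10260, which are copies of Ftl1 and Rps18 elsewhere in the genome. Those that fell were Mup3, Cd59a, Rpl29, Srp54a and Rps3a1. At an unadjusted p under 0.05, 393 genes were higher (3.3% of those tested) and 420 were lower (3.52%). With 1 mouse left out, Tead2, Gm8909 and H2-Bl lost their call without a YAPKO mouse (LM189, and for Tead2 and Gm8909 also LM191). Yap1, Mup3 and Rpl29 lost it without LM189, LM191, LM250 or LM251, Casp4 without LM189, LM191, LM225 or LM251, and Ada, Cd37, Tcp11l1, Srp54a and Rps3a1 without any of 5 or 6 of the mice. The other 11 genes kept it wherever they could be tested. Genes that reached 1 TPM in the YAPKO TAZHET mice but not in the YAPKO mice, such as Slc6a16, Cd1d2, Ifi202b, Gm8909 and H2-Bl, no longer reached 1 TPM in 3 libraries when one of those mice was left out, and were then not tested.

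**Figure D1:**
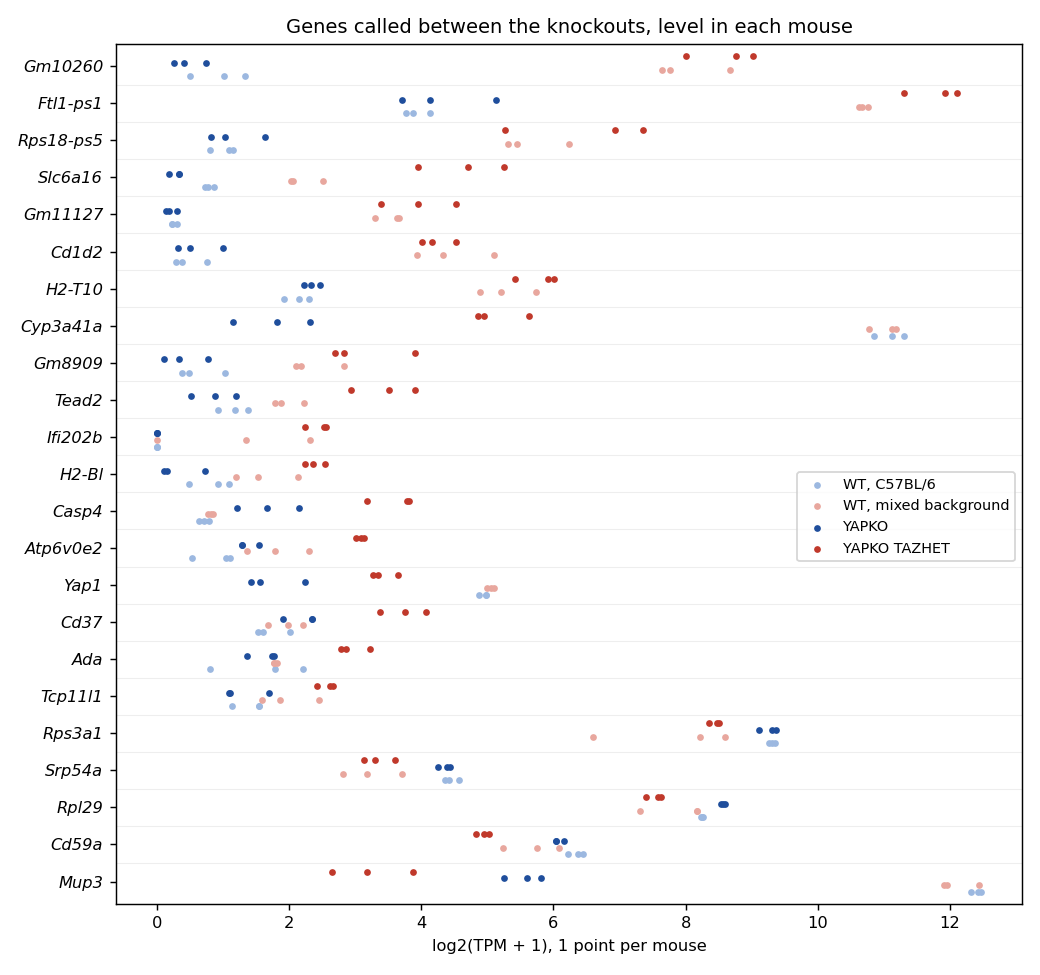
Level of the 23 called genes in each of the 12 mice, as log2(TPM + 1) on the horizontal axis, with 1 point per mouse and 1 color per group. The dark red points (YAPKO TAZHET) and the dark blue points (YAPKO) do not overlap in any row. In Ftl1-ps1, Gm10260, Cd1d2 and H2-T10 the pale red WT mice of the mixed background lie with the dark red ones, and in Cyp3a41a and Mup3 both WT groups lie far above both knockouts.

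The WT groups showed how much of this was already present without a deletion. Between them 24 of 11126 genes were called (0.216%), 19 higher and 5 lower in the mixed background. The same 7 genes were called in both comparisons and in the same direction, which is 30.4% of the 23 knockout calls and 29.2% of the 24 WT calls: H2-T10, Cd1d2, Gm11127, Slc6a16, Rps18-ps5, Ftl1-ps1 and Gm10260. Of the 23, 21 could be tested between the WT groups, and 20 of those had a WT difference of the same sign. In 17 of the 23 the WT groups did not overlap and lay the same way round as the knockouts, 13 higher and 4 lower in the mixed background. Over all genes tested between the WT groups, 8.42% did not overlap with the mixed mice higher and 3.29% with the mixed mice lower. The 6 genes whose WT groups overlapped were Mup3, Ada, Cd37, Casp4, Ifi202b and Cyp3a41a.

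**Figure D2:**
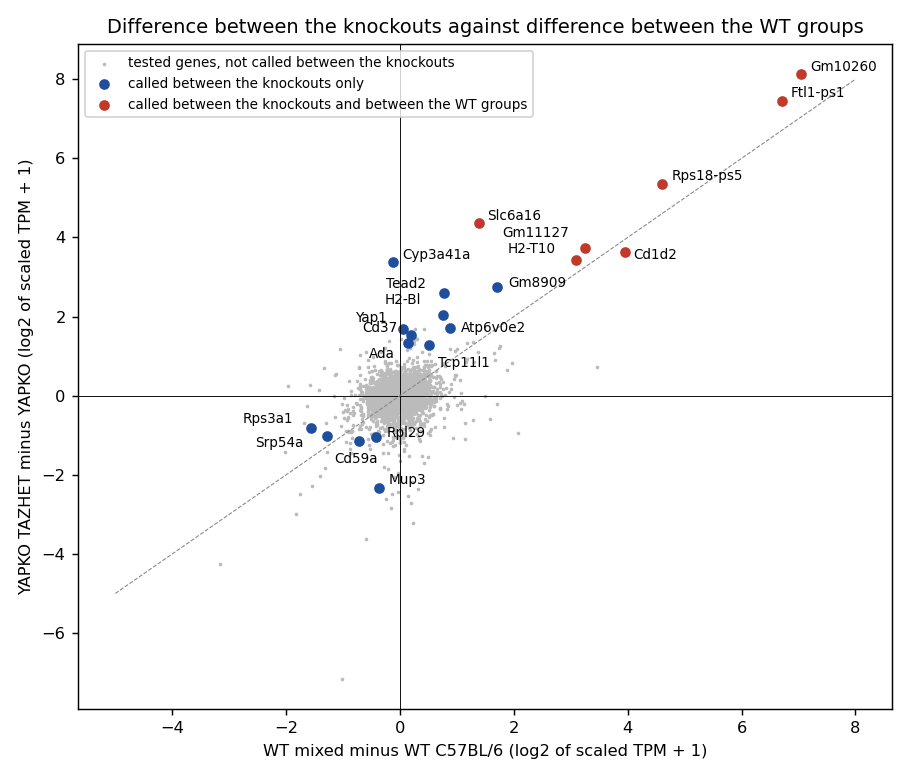
Difference between the knockouts (vertical axis) against the difference between the WT groups (horizontal axis), both in log2 of scaled TPM + 1, for the 10974 genes tested in both, with a dashed line where they are equal. Red points, called in both, lie along the dashed line apart from Slc6a16, while Cyp3a41a, Yap1, Cd37, Ada and Tead2 lie above it at a WT difference under 1. Casp4 and Ifi202b were not tested between the WT groups and are not shown.

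The targeted genes come first. Yap1 (chr9:7931999-8004596, GRCm38) was at 8.63, 9.2 and 11.5 TPM in the YAPKO TAZHET mice LM225, LM250 and LM251, and at 3.72, 1.93 and 1.67 TPM in the YAPKO mice LM74, LM189 and LM191. All 6 were far below the WT mice, which held 28.2 to 33.2 TPM. The residual level was 4.01-fold higher in YAPKO TAZHET livers (difference 1.68 ± 0.22 (SE), limma adjusted p = 0.0339). It amounted to 30.4% of the mixed WT mean, against 8.21% of the C57BL/6 WT mean in YAPKO livers. The TPM values count reads over the whole gene, so transcripts that lost the floxed part and Yap1 of cells without Cre both enter the residual level. In bulk tissue a change in the number of cells of a type and a change in RNA per cell cannot be told apart, here and for each gene that follows.

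Wwtr1 (chr3:57455649-57575910), of which YAPKO TAZHET mice carry 1 floxed copy, was at 14.1, 11.8 and 11.5 TPM in those mice and at 16.7, 13.3 and 13.7 TPM in YAPKO mice. The groups overlapped, and the difference of -0.21 ± 0.10 was not past the threshold (limma adjusted p = 0.79). Both knockouts lay above their own WT littermates, at 153% and 225% of the WT means respectively. Foxa3, whose promoter drives the Cre, was at 52.4 to 85 TPM in YAPKO TAZHET and 57.9 to 75.1 TPM in YAPKO livers (difference -0.04 ± 0.17).

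Among the other members of the Hippo pathway, Tead2 was the one that rose. It encodes a TEAD factor, one of the DNA-binding partners of YAP and TAZ. Tead2 was at 10.4, 6.68 and 14 TPM in LM225, LM250 and LM251, and at 1.3, 0.836 and 0.423 TPM in LM74, LM189 and LM191. This is a 12.1-fold higher mean (difference 2.59 ± 0.27, limma adjusted p = 0.0117). The WT littermates lay between 0.901 and 3.66 TPM, with all 3 mixed mice above all 3 C57BL/6 mice (difference 0.76, not called). Its relatives Tead1 and Tead3 were at 5.65 to 7.15 and 6.16 to 10.4 TPM in YAPKO TAZHET livers, and at 5.13 to 6.58 and 7.02 to 7.43 TPM in YAPKO livers. Over the list of 26 Hippo genes, 22 were tested and 2 were called, both higher, against 0.193% of all genes tested. They were Yap1, the deleted gene itself, and Tead2. Of the 22, 9 were positive and 13 negative, and the median was -0.05. The kinases Lats1 (-0.03), Lats2 (-0.17), Stk3 and Stk4 (both -0.12) and their adaptor Sav1 (-0.03) were near 0.

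Tead2 was not alone at its place on chromosome 7. Its neighbors downstream, Cd37 and Slc6a16, were called too and moved the same way, with starts 17.9 kb apart for Tead2 and Cd37 and 7.45 kb apart for Cd37 and Slc6a16. Cd37 encodes a tetraspanin of B cells and other leukocytes, and Slc6a16 an orphan member of the neurotransmitter transporter family. The sequences upstream of Tead2 and Slc6a16 are printed because these are the 2 plus-strand starts of the group (RefSeq starts, GRCm38.p6, 5′ to 3′, ending where the gene of the deposited annotation or the RefSeq transcript begins). Tead2 is shown from chr7:45215542-45215752, plus strand, and Slc6a16 from chr7:45240503-45240752, plus strand.
Tead2: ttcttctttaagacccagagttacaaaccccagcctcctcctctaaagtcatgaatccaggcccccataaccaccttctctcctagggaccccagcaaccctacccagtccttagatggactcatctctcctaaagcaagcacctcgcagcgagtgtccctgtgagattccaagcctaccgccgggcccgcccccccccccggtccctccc
Slc6a16: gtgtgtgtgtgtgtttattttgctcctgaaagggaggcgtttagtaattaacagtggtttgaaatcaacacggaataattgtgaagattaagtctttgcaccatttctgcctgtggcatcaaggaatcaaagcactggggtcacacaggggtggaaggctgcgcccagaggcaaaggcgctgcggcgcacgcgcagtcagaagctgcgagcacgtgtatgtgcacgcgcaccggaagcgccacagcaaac
Neither stretch held the TEAD motif GGAATG or the AP-1 motif TGANTCA on either strand, where matches would be in capitals. Among the 250 bases before 27025 RefSeq starts, 12.6% held the former and 6.87% the latter.

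Slc6a16 was at 37.2, 14.5 and 25.2 TPM in LM225, LM250 and LM251, and at 0.131, 0.254 and 0.257 TPM in the YAPKO mice. It was close to silent in YAPKO livers, at 3.09 to 4.72 TPM in the mixed WT mice and at 0.658 to 0.826 TPM in the C57BL/6 WT mice. The knockout difference was 4.35 ± 0.28 (limma adjusted p = 0.00068) and the WT difference 1.38 (adjusted p = 0.0322). Cd37 was at 12.5, 9.38 and 15.8 TPM against 4.09, 4.09 and 2.76 TPM (difference 1.53 ± 0.21, limma adjusted p = 0.0431), while its WT groups overlapped between 1.88 and 3.63 TPM. In all 3 genes LM250 was the lowest of the YAPKO TAZHET mice, and still above every YAPKO mouse. Cd37 was past the threshold in 6 of 14 alternative analyses and Tead2 in 10 of 14. For Slc6a16 the analyses without a YAPKO TAZHET mouse could not be run.

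Within 1 Mb of Tead2, 62 other genes were tested and none was called, with differences from -0.85 to 1.37 apart from Ftl1. Ftl1, the ferritin light chain that stores iron, begins 242 kb downstream. It was at 10.1, 5616 and 9.66 TPM in LM225, LM250 and LM251, and at 11465, 13602 and 12119 TPM in the YAPKO mice. So Ftl1 was nearly absent in LM225 and LM251 and at 45.3% of the YAPKO mean in LM250. The WT mice of the mixed background held 3865 to 4297 TPM and those of C57BL/6 7904 to 8157 TPM (WT difference -1.02, limma adjusted p = 0.0322). With LM250 so far from the other two, the knockout difference of -7.15 ± 2.14 was not past the threshold (limma adjusted p = 0.49). Within 10 Mb of Tead2, 28 of 116 other tested genes had an unadjusted p under 0.05, 10 higher and 18 lower. That is 24.1% of them, against 6.82% of all genes tested. Between the WT groups the share in the same stretch was 18.3%.

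**Figure D3:**
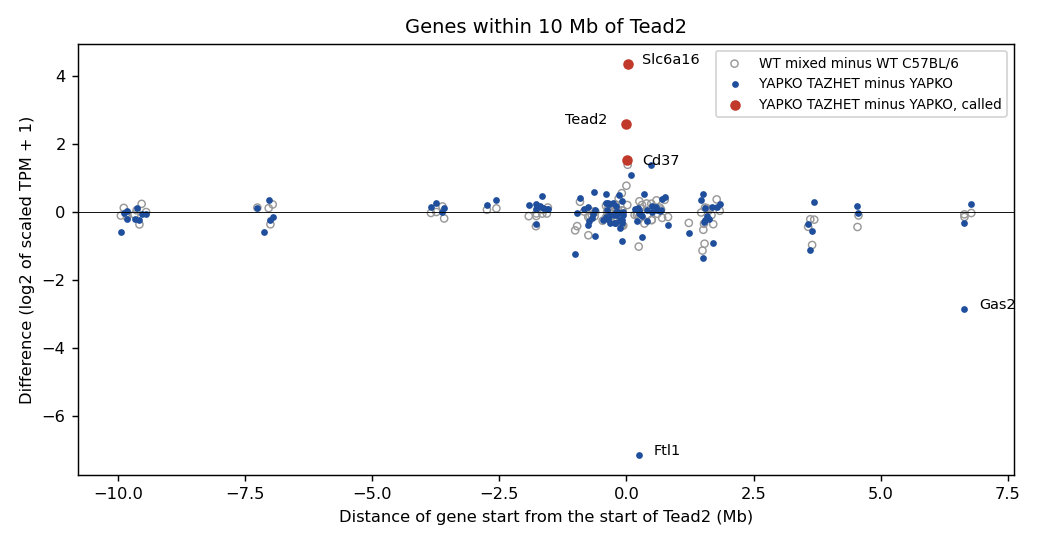
Difference of each tested gene within 10 Mb of Tead2 against the distance of its start from that of Tead2, in log2 of scaled TPM + 1. Filled points are YAPKO TAZHET minus YAPKO (red where called) and open points the WT mixed minus WT C57BL/6. Slc6a16, Tead2 and Cd37 stand above the rest at distance 0, and Ftl1 and Gas2 far below.

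Ftl1 also had a counterpart. Ftl1-ps1 on chromosome 13 (chr13:74399694-74407346) was at 4397, 2519 and 3893 TPM in LM225, LM250 and LM251, and at 34, 16.6 and 12 TPM in the YAPKO mice (difference 7.45 ± 0.32, limma adjusted p = 8.84e-05). The mixed WT mice held 1577 to 1737 TPM and the C57BL/6 WT mice 12.6 to 16.6 TPM. LM250, with the most Ftl1, had the least Ftl1-ps1 of the YAPKO TAZHET mice. The open reading frames of both are 552 bases long in GENCODE M21 and are 99.6% identical, so reads can be assigned to one or the other only where they cover a mismatch, and both levels are uncertain. The untranslated parts of the transcripts, which can also differ, are not shown. The stretch that holds the mismatches of the reading frames is printed, as bases 415 to 504 of the reading frame with mismatches in capitals.
Ftl1: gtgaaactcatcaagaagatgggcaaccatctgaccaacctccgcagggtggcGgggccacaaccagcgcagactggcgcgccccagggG
Ftl1-ps1: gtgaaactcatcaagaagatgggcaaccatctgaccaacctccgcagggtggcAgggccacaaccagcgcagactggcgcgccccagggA
Summed over both, the level was 4408, 8135 and 3903 TPM in LM225, LM250 and LM251 and 11499, 13619 and 12131 TPM in LM74, LM189 and LM191. The sum thus stayed lower in each YAPKO TAZHET mouse than in each YAPKO mouse, as it did between the WT groups (5443 to 6035 against 7917 to 8171 TPM).

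The ribosomal protein gene Rps18 on chromosome 17 and its copies Gm10260 and Rps18-ps5 on chromosome 13 had the same layout. Gm10260 was at 256, 520 and 432 TPM in LM225, LM250 and LM251 and at 0.68, 0.328 and 0.19 TPM in the YAPKO mice (difference 8.13 ± 0.27, limma adjusted p = 2.36e-05). Rps18-ps5 was at 37.3, 121 and 162 TPM against 2.09, 0.757 and 1.05 TPM (5.36 ± 0.51, limma adjusted p = 0.0069). Rps18 itself was at 328, 7.04 and 12.1 TPM against 726, 532 and 602 TPM (-4.25 ± 1.17, limma adjusted p = 0.417). The mouse with the most Rps18, LM225, had the least of both copies. Summed over the 3 genes the level was 606 to 648 TPM in YAPKO TAZHET and 533 to 729 TPM in YAPKO livers, and the groups overlapped. Rps18 and Gm10260 have reading frames of 459 bases with 4 mismatches, and bases 282 to 371 hold 2 of them, again in capitals.
Rps18: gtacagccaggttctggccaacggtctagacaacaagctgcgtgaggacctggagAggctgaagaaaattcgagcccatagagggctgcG
Gm10260: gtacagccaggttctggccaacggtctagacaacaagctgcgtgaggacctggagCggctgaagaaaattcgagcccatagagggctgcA
Of the 23 called genes, 12 have a copy in GENCODE M21 that is at least 90% identical over at least 30% of the transcript, so that their levels are uncertain in the same way. For the other 11 none was found: Tead2, Cd37, Slc6a16, Yap1, Casp4, Ada, Atp6v0e2, Tcp11l1, Ifi202b, Cd59a and Rps3a1. The search covered the longest transcript of each gene listed in the deposited data, so copies outside these were not sought.

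Ftl1 and Rps18 belong to a set of genes in which the YAPKO TAZHET mice differed among themselves. By a rule chosen after the values were seen, a gene was taken where these 3 mice differed at least 4-fold while the YAPKO mice, at a mean of 20 TPM or more, differed less than 1.5-fold, with 0.5 TPM added to each value. Of 4323 genes with such a YAPKO mean, 10 met it, and 5 of the 10 lie on chromosome 17 between 24.7 and 36.0 Mb. Those 5 are the ribosomal protein genes Rps2 and Rps18 and the MHC class I genes H2-K1, H2-T22 and H2-T23, whose products present peptides or engage receptors of lymphocytes. In all 5 LM225 held the most. Rps2 was at 496 TPM in LM225 and at 102 and 109 TPM in LM250 and LM251, against 972 to 1015 TPM in YAPKO livers. H2-K1 was at 1137, 221 and 296 TPM against 1588 to 1931 TPM, and H2-T23 at 331, 89.2 and 61.5 TPM against 401 to 474 TPM. LM225 thus had 50.1% to 75.7% of the YAPKO mean over these 5 genes, and the other two 1.14% to 20.4%. The mixed WT mice divided in the same genes, with LM227 at 0.702% to 16.8% of the C57BL/6 WT mean and LM226 and LM230 at 39.6% to 72.8%. None of the 5 was called between the knockouts. All reads were aligned to a C57BL/6J reference, and whether reads of other alleles were counted in full was not tested, here and for other genes.

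The other 5 of the 10 divided the mice differently. Ftl1 and Gas2, 6646 kb beyond the start of Tead2, were high in LM250. Gas2, which encodes a protein that binds the cytoskeleton in growth-arrested cells, was at 1.55, 26.2 and 1.87 TPM against 35.3 to 46.1 TPM in YAPKO livers, while all 6 WT mice held 9.98 to 15.8 TPM. Kpna2, an importin of nuclear proteins on chromosome 11, was at 0.951, 0.952 and 35.4 TPM against 33.7 to 48.7 TPM. Its copy Gm10184, whose transcript is 99.9% identical over 1968 bases, was at 45.6, 39.4 and 0.192 TPM and at 0 in each YAPKO mouse. The sum of the pair was 35.6 to 46.6 TPM and 33.7 to 48.7 TPM in the respective groups. S100a9, a neutrophil protein, was highest in LM225 (25.2, 4.12 and 9.27 TPM), and Defb1, a defensin, was lowest there (8.01, 40.2 and 34.5 TPM).

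**Figure D4:**
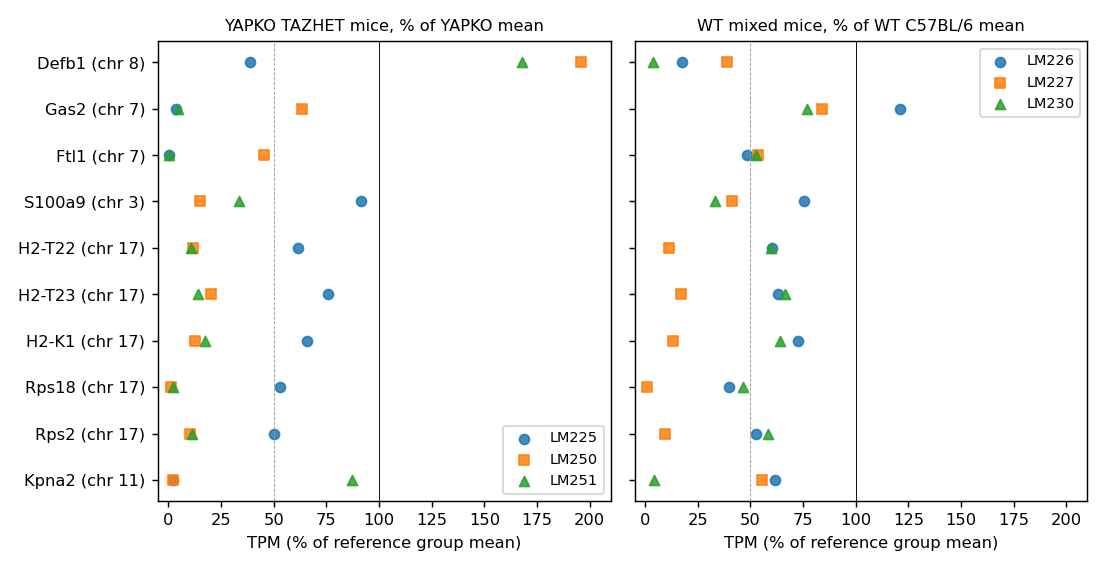
The 10 genes in which the YAPKO TAZHET mice differed among themselves, with the chromosome of each. The left panel gives each YAPKO TAZHET mouse in percent of the YAPKO mean, the right panel each WT mouse of the mixed background in percent of the C57BL/6 WT mean, and the dashed line is at 50%. On chromosome 17, LM225 lies near or above the dashed line and LM250 and LM251 near 0, and among the WT mice LM227 lies near 0.

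The called genes of the MHC lay just beyond that stretch of chromosome 17. Gm11127, H2-Bl, H2-T10 and Gm8909 follow each other with starts 24.3, 35.8 and 48.6 kb apart, and all 4 rose. H2-Bl and H2-T10, like Cd1d2, have transcripts that GENCODE M21 annotates as polymorphic pseudogene beside protein-coding ones. H2-T10 was at 41.7, 63.3 and 59.3 TPM in LM225, LM250 and LM251, and at 3.67, 4.55 and 4.01 TPM in LM74, LM189 and LM191 (difference 3.43 ± 0.20, limma adjusted p = 0.000382). Its copy H2-T22, 97.4% identical over 1495 bases, was lower in the same mice (114, 21.5 and 20.2 against 166 to 201 TPM). Summed over the pair, the level was 156, 84.8 and 79.5 TPM against 193, 205 and 170 TPM. The sum was thus lower in each YAPKO TAZHET mouse than in each YAPKO mouse. Gm11127 was at 9.51, 21.9 and 14.4 TPM against 0.0946 to 0.238 TPM, Gm8909 at 5.47, 14 and 6.08 TPM against 0.0736 to 0.703 TPM, and H2-Bl at 3.71, 4.82 and 4.14 TPM against 0.0808 to 0.655 TPM. H2-T10 and Gm11127 differed by as much between the WT groups (3.10 and 3.25, both called), and Gm8909 (1.71) and H2-Bl (0.75) differed the same way without being called.

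Other MHC genes lay on both sides. H2-D1, a classical class I gene, was at 1351 to 1369 TPM in YAPKO TAZHET and 723 to 889 TPM in YAPKO livers (0.74 ± 0.13, limma adjusted p = 0.114), and the difference was called between the WT groups (0.79, adjusted p = 0.0322). H2-Q10, a secreted class I molecule of the liver, was at 1330 to 1814 TPM against 2243 to 2500 TPM. Tap2, a subunit of the peptide transporter that feeds class I molecules, was at 40 to 47.3 TPM against 25.3 to 27.6 TPM and just missed the threshold (limma adjusted p = 0.0698). Of 38 listed MHC genes 23 were tested and 2 were called, both higher (H2-Bl and H2-T10), against 0.193% of all genes tested, and the median was 0.01. At an unadjusted p under 0.05, 6 of the 23 were higher and 7 lower, against 3.3% and 3.52% of all genes tested.

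Cd1d2 on chromosome 3 (chr3:86986551-86989780), a CD1 molecule of the kind that presents lipids to NKT cells, was at 16.8, 22 and 15.1 TPM against 0.999, 0.241 and 0.418 TPM (3.63 ± 0.21, limma adjusted p = 0.000382). It was at 14.3 to 33.3 TPM in the mixed WT mice and 0.224 to 0.694 TPM in the C57BL/6 WT mice. Its near-identical neighbor Cd1d1 was at 173 to 224 TPM in YAPKO TAZHET and 183 to 214 TPM in YAPKO livers (-0.01 ± 0.13).

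Casp4, Ada, Ifi202b and Cd59a were also called, and are set side by side here without a list of their own. Casp4, the caspase that responds to cytosolic lipopolysaccharide, was at 13.1, 8.09 and 12.8 TPM in LM225, LM250 and LM251, and at 3.42, 2.18 and 1.32 TPM in the YAPKO mice (1.92 ± 0.25, limma adjusted p = 0.0339). All 6 WT mice were under 1 TPM (0.553 to 0.791). Casp4 lies 2623 kb from Yap1 on chromosome 9 and was the 1 called gene among 35 tested within 10 Mb of Yap1, apart from Yap1 itself. Its relatives Casp1 and Casp12, next to it, were not called, and Casp12 was again uneven among the YAPKO TAZHET mice, at 25.4, 6.42 and 7.52 TPM against 18.4 to 21.3 TPM.

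Ada, adenosine deaminase, was at 5.86, 6.29 and 8.3 TPM against 2.41, 1.58 and 2.33 TPM (1.33 ± 0.18, limma adjusted p = 0.0493), and the WT groups overlapped between 0.738 and 3.64 TPM. Ifi202b, an interferon-inducible member of the family that binds cytosolic DNA, was at 4.74, 3.73 and 4.88 TPM and listed at 0 in each YAPKO mouse (2.44 ± 0.17, limma adjusted p = 0.00103). It was listed at 0 in the 3 C57BL/6 WT mice too, and at 1.53, 0 and 3.97 TPM in the mixed WT mice. Cd59a, which protects cells against the complement membrane attack complex, fell: it was at 31.4, 29.9 and 27.4 TPM against 70.8, 64.6 and 64.7 TPM (-1.16 ± 0.09, limma adjusted p = 0.00148). The WT groups lay the same way round (36.6 to 66.5 against 73.4 to 86.6 TPM).

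Cd59a and Tcp11l1 are neighbors on chromosome 2, with starts 561 kb apart, and moved in opposite directions. Tcp11l1 was at 5.32, 5.16 and 4.35 TPM against 2.23, 1.14 and 1.13 TPM (1.27 ± 0.18, limma adjusted p = 0.0494). Atp6v0e2, a subunit of the proton pump that acidifies lysosomes, was at 7.51, 7.74 and 7.05 TPM against 1.92, 1.44 and 1.43 TPM (1.70 ± 0.13, limma adjusted p = 0.00148). Its WT groups did not overlap either (1.57 to 3.9 against 0.443 to 1.15 TPM).

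Of the 3 called genes of the translation machinery that fell, Rpl29 and Rps3a1 encode ribosomal proteins and Srp54a a subunit of the signal recognition particle. Rpl29 was at 168, 190 and 197 TPM against 385, 369 and 376 TPM (-1.03 ± 0.12, limma adjusted p = 0.0246). In the mixed WT mice it was at 157 TPM in LM230 and at 286 and 288 TPM in the other two, which overlapped none of the C57BL/6 WT mice (300 to 305 TPM). Rps3a1 was at 363, 325 and 356 TPM against 657, 630 and 554 TPM (-0.82 ± 0.11, limma adjusted p = 0.0372), and was at 95.9 to 387 TPM against 613 to 653 TPM between the WT groups. Srp54a was at 11.2, 8.8 and 7.73 TPM against 20, 20.6 and 18 TPM (-1.02 ± 0.13, limma adjusted p = 0.0322), while its copies Srp54b and Srp54c, at 13.8 to 19.2 TPM, were not called. Of 77 tested members of a list of cytosolic ribosomal proteins, which does not hold Rps3a1, Rpl29 was the 1 called, against 0.193% of all genes tested. Of the 77, 34 were positive and 43 negative, and the median was -0.02.

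A pair of liver genes that both knockouts had nearly lost differed between them. Cyp3a41a, a cytochrome P450 that female livers express, was at 1754 to 2516 TPM in the 6 WT mice. It was at 48.7, 27.9 and 30 TPM in LM225, LM250 and LM251, and at 1.23, 3.97 and 2.53 TPM in LM74, LM189 and LM191 (3.37 ± 0.31, limma adjusted p = 0.00627). The residual level was 1.69% of the WT mean in YAPKO TAZHET and 0.117% in YAPKO livers. Cyp3a41b, which is 99.7% identical over 2064 bases, was at 0.255, 7.63 and 5.49 TPM against 0.678, 0 and 0 TPM and was too low to be tested. Mup3, a major urinary protein that carries pheromones, was at 13.7, 8.05 and 5.25 TPM against 37.1, 55 and 47.7 TPM (-2.33 ± 0.29, limma adjusted p = 0.0304). The WT mice held 3861 to 5687 TPM, so both knockouts kept under 1% of it (0.202% and 0.859%).

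Mup20 went the other way against WT. It was at 378, 115 and 69.3 TPM in LM225, LM250 and LM251, at 1228, 2581 and 1815 TPM in the YAPKO mice, and at 44.3 to 97.6 TPM in all 6 WT mice (knockout difference -3.63 ± 0.55, limma adjusted p = 0.0802). Of 22 listed major urinary proteins 11 were tested and 1 was called (Mup3), against 0.193% of all genes tested. Of the 11, 10 were negative, and the median was -0.72. Of 82 listed cytochromes P450 of families 1 to 4, 53 were tested and Cyp3a41a was the 1 called, against 0.193% of all genes tested. Of the 53, 27 were positive and 26 negative, with a median of 0.01. The fatty acid hydroxylases Cyp4a10 (163, 229 and 160 against 84.9, 90.1 and 104 TPM) and Cyp4a14 (175, 355 and 199 against 117, 86.9 and 58.7 TPM) did not overlap but were not past the threshold (limma adjusted p = 0.146 and 0.213). Over 30 listed sex-biased liver genes, 20 were tested and 1 was called (Cyp3a41a), against 0.193% of all genes tested. Of the 20, 15 were positive and the median was 0.35 (0.15 without LM74). The summed level of the listed genes was 905 to 2707 TPM in YAPKO TAZHET and 1820 to 3470 TPM in YAPKO livers, and the groups overlapped. Between the WT groups the median was -0.51 over the 28 members tested there, so the medians of both comparisons do not cover the same genes.

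Next come the targets of YAP and TAZ. Ccn1, a matricellular protein, was at 10.1, 9.7 and 9.15 TPM in LM225, LM250 and LM251, and at 28.5, 92.2 and 56.6 TPM in LM74, LM189 and LM191. The YAPKO TAZHET mice lay below each of their own mixed WT littermates (12.6 to 13.4 TPM). They were within the range of the C57BL/6 WT mice (7.4 to 13 TPM). The YAPKO mice all lay above both WT groups, in the order LM189, LM191, LM74 that the immediate-early genes described next also had. The difference of -2.36 ± 0.39 was not past the threshold (limma adjusted p = 0.103; adjusted p 0.0043 to 0.403 over 14 alternative analyses, of which 3 passed). Ccn2, its relative, was at 6.96, 3.09 and 7.34 TPM against 5.51, 12.1 and 11.6 TPM, and the groups overlapped (-0.67 ± 0.37, limma adjusted p = 0.836). The 250 bases upstream of Ccn1 (chr3:145649986-145650235, minus strand, GRCm38.p6, printed 5′ to 3′ in the direction of the gene) hold 1 match to GGAATG, here on the opposite strand and in capitals.
Ccn1: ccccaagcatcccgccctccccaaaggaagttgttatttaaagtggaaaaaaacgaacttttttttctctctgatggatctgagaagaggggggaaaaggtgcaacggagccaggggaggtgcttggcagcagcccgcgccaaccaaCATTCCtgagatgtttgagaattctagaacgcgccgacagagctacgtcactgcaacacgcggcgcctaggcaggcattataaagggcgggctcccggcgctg
Of the 22 listed YAP and TAZ target genes 18 were tested and 0 were called by limma. At an unadjusted p under 0.05, 3 of the 18 were lower (Ccn1, Tgfb2 and Ccdc80) and 0 higher, against 3.52% and 3.3% of all genes tested. The median was -0.12, with 12 negative and 6 positive. The 11 genes that the study stained for or plotted held 0 genes called by limma, with 10 negative and a median of -0.31. With 1 mouse left out, 7 (without LM74) to 10 were negative and the median was -0.47 to -0.18. The study plotted Ccn1 and Ccn2 from these same libraries for losing their rise in YAPKO TAZHET mice. Part of the count therefore follows from how the list was chosen. Axl, a receptor tyrosine kinase, and Amotl2, an inhibitor of YAP, were at 40.6 to 43.3 and 7.5 to 8.77 TPM in YAPKO TAZHET and at 30.7 to 44.6 and 6.31 to 13.3 TPM in YAPKO livers.

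Among the lists with at least 5 tested members, the one that lay lowest was that of the immediate-early genes, which cells switch on within minutes of a stimulus. Of 35 listed genes 30 were tested and 0 were called by limma, but 29 of the 30 were negative, with a median of -1.12 against -0.03 between the WT groups. At an unadjusted p under 0.05, 16 of the 30 were lower, against 3.52% of all genes tested. In 14 of the 30 each YAPKO TAZHET mouse was below each YAPKO mouse, against 5.13% of all genes tested (in the opposite direction 0 of the 30, against 4.89%). Fos, a subunit of AP-1, was at 12.8, 7.7 and 8.88 TPM in LM225, LM250 and LM251, and at 19.8, 189 and 81.1 TPM in LM74, LM189 and LM191 (-2.71 ± 0.71, limma adjusted p = 0.389). Jun, its partner, was at 39.5, 37 and 31.5 TPM against 51.2, 533 and 314 TPM. Egr1, Atf3, Ier2, Btg2 and Nr4a1 had the same order of mice, with LM189 highest, LM191 next and LM74 lowest of the YAPKO mice.

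The YAPKO mice differed widely among themselves in these genes. The summed level of the listed genes was 973 to 1132 TPM in the YAPKO TAZHET mice, 1254 TPM in LM74, 6181 TPM in LM189 and 3214 TPM in LM191, and 415 to 550 TPM in the WT mice. Without LM189 the median was -0.60, with 26 negative and 13 lower at an unadjusted p under 0.05, without LM191 it was -1.33, with 29 negative and 14 lower, and without LM74 it was -1.46, with 28 negative and 23 lower. Under the rule for uneven genes, mirrored so that the YAPKO mice had to differ at least 4-fold, 5 genes were found among 4339, all of them immediate-early genes: Btg2, Egr1, Ier2, Jun and Zfp36. The stress cytokine Gdf15, outside that list, had the same order, at 10.4, 8.31 and 7.7 TPM against 21, 361 and 93.1 TPM. The heat-shock genes (14 tested, 11 negative, median -0.19) and the clock genes (17 tested, 8 negative, median 0.04) had medians closer to 0. The clock genes were uneven within both groups. They summed to 653, 317 and 319 TPM in LM225, LM250 and LM251, and to 333, 574 and 528 TPM in LM74, LM189 and LM191. As in the immediate-early genes, LM189 and then LM191 were the highest knockout mice in the 9 listed markers of pancreas and fat. Most of these markers were too low to be tested. These markers summed to 85.1 TPM in LM189, 26.9 TPM in LM191, and 1.43 to 2.64 TPM in LM74 and the YAPKO TAZHET mice. They also reached 57.1 TPM in the C57BL/6 WT mouse LM192, whose immediate-early genes summed to 419 TPM, within the WT range. The part of the pancreas and fat markers in the result was not tested.

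A list of genes of stellate cells, fibroblasts and matrix had mostly negative differences. All 36 listed were tested, 0 were called by limma, 31 were negative and the median was -0.31 (-0.14 between the WT groups). At an unadjusted p under 0.05, 14 of the 36 were lower and 0 higher, against 3.52% and 3.3% of all genes tested. Col1a1, the chain of the main collagen of scar tissue, was at 48.1, 25.9 and 38.2 TPM against 73.1, 86.6 and 67.1 TPM (-1.04 ± 0.21, limma adjusted p = 0.175). Col1a2 was at 25.7 to 45.2 TPM against 57.9 to 72 TPM, and Col3a1 at 38.1 to 58.6 TPM against 65.4 to 97.7 TPM. Both knockouts lay above all WT mice in each of the 3 genes (1.08 to 11.9 TPM). Col5a3, a collagen chain that the list does not hold, went the other way, at 19.3, 27.3 and 22.5 TPM against 12.6, 9.8 and 7.97 TPM (1.11 ± 0.18, limma adjusted p = 0.0926). The count of lower genes was 8 to 16 with 1 mouse left out at a time, and the median -0.46 to -0.21.

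Among the markers of bile duct cells, 14 of 20 were tested, 0 were called by limma, 12 were negative and the median was -0.26. Spp1, osteopontin, which biliary cells and macrophages secrete, was at 208, 84.4 and 168 TPM against 725, 303 and 323 TPM (-1.53 ± 0.37, limma adjusted p = 0.331). Bicc1 was at 3.63, 3.52 and 4.26 TPM against 11.6, 7.66 and 6.17 TPM (-0.95 ± 0.19, limma adjusted p = 0.171). Sox9 and Krt19 overlapped (7.87 to 11.2 against 9.37 to 15.9 TPM, and 0.404 to 1.82 against 0.608 to 3.15 TPM). Slpi, a protease inhibitor of secreting epithelia that no list held, was at 336, 409 and 385 TPM against 104, 135 and 186 TPM and under 4 TPM in all WT mice (1.43 ± 0.23, limma adjusted p = 0.103).

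Of the immune cell markers, 0 were called by limma, and whether the lists differ from each other was not tested. The 24 macrophage markers, all tested, had a median of 0.15 (0.04 to 0.26 with 1 mouse left out), with 18 positive, and their summed level overlapped (2636 to 2774 against 2059 to 2847 TPM). At an unadjusted p under 0.05, 3 of the 24 were higher and 0 lower, against 3.3% and 3.52% of all genes tested. The 3, Cd5l, Timd4 and Clec4f, are markers of resident Kupffer cells, and the groups overlapped in Clec4f. Without overlap, 2 of the 24 were higher and 1 lower, against 4.89% and 5.13% of all genes tested. Cd5l was at 351, 450 and 439 TPM against 318, 237 and 202 TPM, Timd4 at 9.16, 11.2 and 12 TPM against 7.9, 6.14 and 3.04 TPM, and Clec4f at 155, 225 and 231 TPM against 168, 143 and 121 TPM. The pan-macrophage marker Adgre1 was at 24.1 to 27.1 TPM against 17.7 to 31.6 TPM, and the pan-leukocyte marker Ptprc at 9.12 to 11.5 TPM against 7.43 to 14 TPM.

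Of 18 monocyte and neutrophil markers 12 were tested, 9 were negative and the median was -0.30 (-0.58 to -0.07 with 1 mouse left out), with summed levels of 69.7 to 151 TPM against 99.1 to 146 TPM. Itgam, the integrin of myeloid cells, was at 2, 1.45 and 1.46 TPM against 4.16, 2.86 and 2.28 TPM (-0.62 ± 0.18, limma adjusted p = 0.458), and Retnlg, a neutrophil product, at 3.56, 0.403 and 0.644 TPM against 5.57, 4.96 and 7 TPM. LM225 was the highest of its group in both. Of 20 lymphocyte and NK markers 9 were tested, with a median of 0.03 (-0.14 to 0.16). All 18 endothelial markers were tested, with 15 positive and a median of 0.21, against 0.23 between the WT groups. The chemokine Cxcl2, which draws neutrophils, had the order of mice of the immediate-early genes, at 0.993, 0.449 and 0.548 TPM against 1.5, 13.2 and 6.24 TPM.

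Genes of hepatocyte function lay near 0. The 20 hepatocyte markers, with albumin and the like, summed to 140824 to 159586 TPM in YAPKO TAZHET and 142328 to 155273 TPM in YAPKO livers, and their median was 0.04. Hnf4a, a regulator of hepatocyte identity, was at 199 to 306 TPM against 226 to 268 TPM. In 34 tested genes of bile acid synthesis and transport the median was -0.03, and Cyp8b1, the sterol 12-alpha-hydroxylase, was the lowest by p (28.7, 24.1 and 23.8 against 38.5, 47.3 and 50 TPM, limma adjusted p = 0.133). The 24 cholesterol synthesis genes had 20 positive members and a median of 0.12, against -0.15 between the WT groups. Oxidative phosphorylation (77 tested, median 0.03), the proteasome (37, -0.02), interferon-stimulated genes (43, 0.06), acute phase genes (29, -0.09), and complement and coagulation (39, -0.01) held no called gene. Genes of S phase (33 tested, 26 negative, median -0.08) and of G2 and M phase (45 tested, 35 negative, median -0.11) held none either. Without LM74, 17 and 22 of the respective members were negative, and without any other mouse 21 to 26 and 33 to 37. The medians were -0.22 to -0.03 and -0.24 to 0.00 with 1 mouse left out. The proliferation markers Mki67 and Pcna overlapped (2.29 to 2.71 against 2.07 to 5.02 TPM, and 41.9 to 53.3 against 43 to 62.6 TPM).

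The remaining lists with 0 genes called by limma were those of ER stress (16 tested, median -0.05), apoptosis (28, -0.03), lipogenesis (20, 0.07), fatty acid oxidation (26, -0.06), glucose metabolism (19, -0.07), sulfotransferases (9, 0.26), UDP-glucuronosyltransferases (16, -0.15), glutathione S-transferases (23, -0.04), serpins (28, 0.05), chemokines and cytokines (25, -0.10) and red blood cells (5, -0.38). The sulfotransferase Sult1e1, which inactivates estrogens, was far higher in LM225 than elsewhere (111, 12.5 and 21.2 against 3.58, 4.37 and 5.4 TPM).

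**Figure D5:**
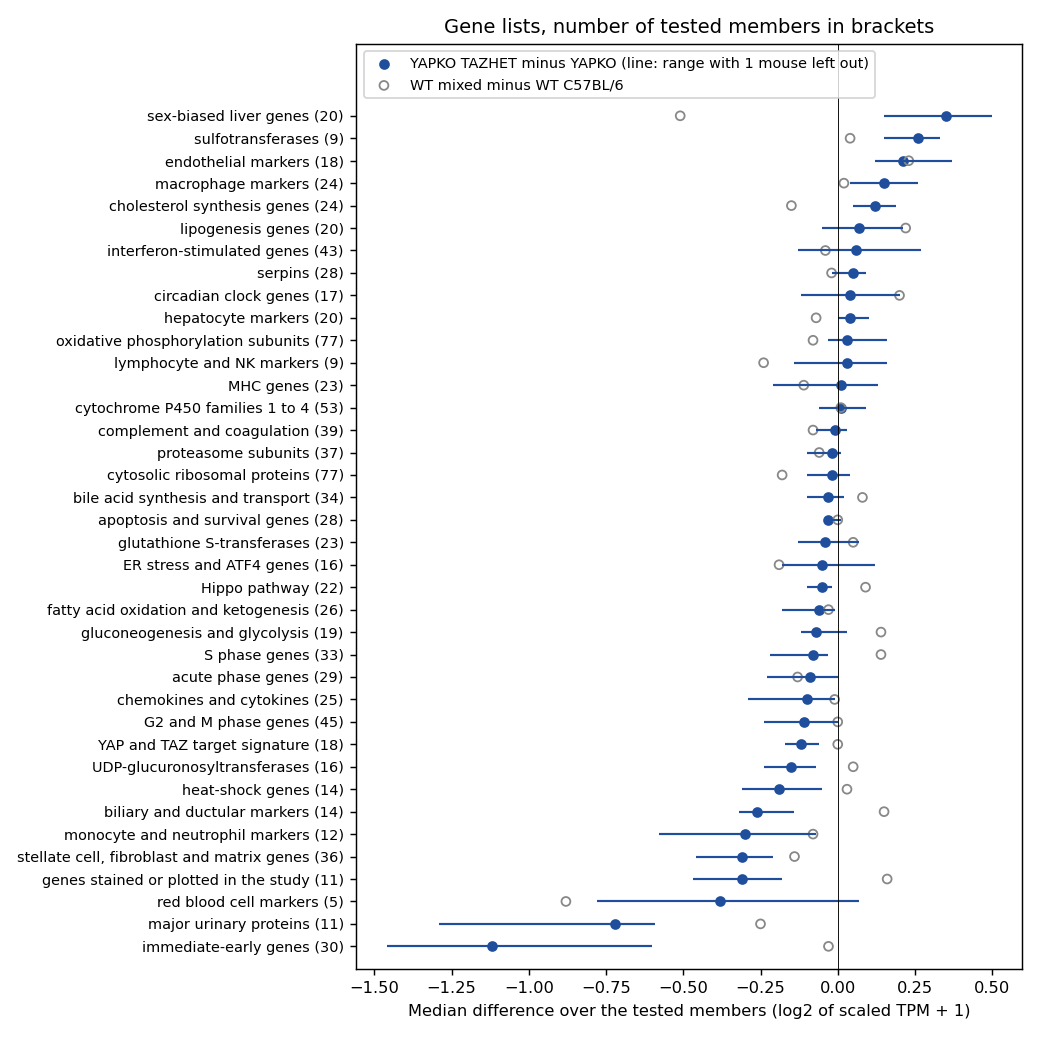
Median difference of each gene list with at least 5 tested members, in log2 of scaled TPM + 1, with the number of tested members in brackets. Filled points are YAPKO TAZHET minus YAPKO, with a line from the lowest to the highest value when 1 of the 6 mice is left out, and open circles are WT mixed minus WT C57BL/6, over the members tested there. The immediate-early genes (-1.12) and major urinary proteins (-0.72) lie lowest, while most lists lie near 0.

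The position of the called genes relative to the deleted genes was counted. Within 10 Mb of Yap1, 1 of 35 other tested genes was called (Casp4), which is 2.86% against 0.193% of all. It was also the 1 gene there with an unadjusted p under 0.05, and that share of 2.86% lies below the 6.82% of all genes and the 10.3% in the same stretch between the WT groups. Within 10 Mb of Wwtr1, 0 of 51 were called by limma, and 7 (13.7%) had an unadjusted p under 0.05, against 6.82% of all and 10.6% in the same stretch between the WT groups. The called genes nearest Wwtr1 on its chromosome were Rps3a1 and Cd1d2, whose starts are 849 kb apart.

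Finally, the knockout difference was set against the WT difference in a single contrast over all 12 libraries, which asks whether the 2 knockouts differ by more or less than their backgrounds. Of 12159 genes 7 were called (0.0576%), 4 positive and 3 negative, and 3 of them were also among the 23. These 3 were Cyp3a41a, Slc6a16 and Yap1. Casp4 came next to the threshold (1.80 ± 0.29, limma adjusted p = 0.058). The remaining 4 were Mup1, Mup18, Sult2a7 and H2-Q1. Mup1 was at 1349 to 2287 TPM against 10 to 46.1 TPM between the WT groups, and at 0.915, 1.73 and 2.73 TPM in the YAPKO TAZHET mice against 0.161, 0 and 0.269 TPM in the YAPKO mice, so the order was the same at far lower levels. Mup18 and Sult2a7 were at 1.26 TPM or less in all knockouts, with overlapping groups, and H2-Q1 was at 14.6 to 33.8 TPM against 3.13 to 6.22 TPM between the WT groups but at 26.1 to 43.5 TPM against 51.3 to 73.2 TPM between the knockouts.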

How the data were processed

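RNA from whole livers of 12 female mice in 4 groups was sequenced by the authors in pairs and processed in CLC Genomics Workbench against GRCm38, a C57BL/6J reference, and per the labels with edgeR. The deposited tables, 1 for each background, give TPM values per gene and library, which the authors scaled within each library and not across tables. The tables also hold the authors' fold changes and p-values for each knockout against its WT littermates, which were not used. The 2 tables were joined on gene name. The groups and lists were chosen with earlier results of these data known. Replicates are separate mice, and p-values measure the spread between them.

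TPM values were scaled by a trimmed mean of log ratios (30% of ratios and 5% of levels trimmed), a pseudocount of 1 was added and log2 taken, so that folds of low genes are understated. Where 3 or more libraries reached 1 TPM, a gene entered the limma test (limma 3.58.1, R 4.3.3; empirical Bayes with a trend, two-sided, Benjamini-Hochberg, threshold 0.05), in the 6 knockout libraries, in the 6 WT libraries and, as a difference of differences, in all 12. An exact permutation test of 3 against 3 mice cannot go below p = 0.1. On simulated data the knockout test recovered 76% of genes changed 2-fold and 96% of those changed 4-fold among 11936 genes, and called 9 unchanged genes. That simulation used normal noise and changed 200 genes, all with a mean above 2 on the log2 scale. These shares therefore do not give the power for low genes or for fewer changes. In the real data 22 of the 148 genes that differed more than 2-fold were called. Named genes were the targeted genes, the genes the study stained or plotted, up to 12 largest called changes each way and 10 not called in WT, genes on in 1 knockout and off in the other, up to 4 called and 2 highest members of each of 40 lists, genes of the 12-library contrast, and the called genes nearest Yap1 and Wwtr1. Others, including those named for an unadjusted p, were chosen after their values were seen. Copies were sought with blastn 2.17.0 among the longest GENCODE M21 transcripts of the genes listed in the deposited data. Promoters are RefSeq sequence of GRCm38.p6. Counts per gene and sequences of single reads were not used here. Alternatives were a threshold of 0.01, quantile normalization, unscaled TPM, robust shrinkage, a minimum raised to 5 TPM or dropped, a pseudocount of 0.1, 1 fit of all libraries, and leaving out each mouse.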

Additional observations from a re-analysis of the deposited data

Results flagged for a closer look

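In 7 genes the difference between the knockouts departed from the difference between their WT groups, by a limma test of the difference of differences over all 12 libraries. The value was 3.44 for Cyp3a41a, 2.77 for Slc6a16, 2.71 for Mup18, 1.59 for Yap1, -2.69 for Sult2a7, -3.06 for H2-Q1 and -5.13 for Mup1, each on the log2(scaled TPM + 1) scale. Cyp3a41a was past the threshold in 19 of 19 alternatives, Sult2a7 in 18, Mup1 in 16, Slc6a16 and H2-Q1 in 13 each, Mup18 in 11 and Yap1 in 5. Mup1, Mup18 and Sult2a7 were under 3 TPM in all 6 knockout livers.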

How the results depend on the processing

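The 24 named differences followed (the 23 calls and Ccn1) kept their direction in all 312 values recomputed, and 83 of those missed the threshold where the reported one passed. Atp6v0e2, Cd59a, Cd1d2, Ftl1-ps1, Gm10260, Gm11127, H2-T10, Ifi202b and Slc6a16 stayed past the threshold in every alternative in which they were tested. For Cd1d2, Gm10260, Gm11127, Ifi202b and Slc6a16 this leaves out those without a YAPKO TAZHET mouse, and for Ifi202b also the minimum of 5 TPM. Without a filter, 8 genes were higher and 1 lower, 15 differed between the WT groups, 2 were called in the 12-library contrast and 0 lay near Yap1. In 1 fit of all 12 libraries, 31 were higher, 19 lower and 11 shared with the WT groups. At a threshold of 0.01 the numbers were 10, 1, 11 (WT), 2 (contrast) and 0 (near Yap1), and with a pseudocount of 0.1 the contrast gave 3. With 1 mouse left out, 6 (without LM251) to 20 (without LM74) genes were higher, 2 (without LM189 or LM191) to 25 (without LM225) lower, 9 (without LM227) to 28 (without LM75) differed between the WT groups, 3 to 7 were shared, 3 to 20 (without LM74; 15 without LM225) were called in the contrast, and 0 to 1 lay within 10 Mb of Yap1. No paired analysis was possible because the mice of the groups share no replicate numbers. The depth that each library reached is unknown, so the counting error of low TPM values cannot be given.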

Other observations

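5 genes had a mean of at least 10 TPM in YAPKO TAZHET livers and under 1 TPM in each YAPKO mouse: Gm10260, Gm10184, Slc6a16, Cd1d2 and Gm11127. In the opposite direction there was 1, the pancreatic protease precursor Ctrb1, at 35.8 TPM in LM189, 8.61 TPM in LM191 and 0 in LM74, and at 0, 0.136 and 0.145 TPM in the YAPKO TAZHET mice. Ctrb1 was also at 21.3 TPM in 1 WT mouse of C57BL/6. Genes that differed more than 2-fold on the log2(scaled TPM + 1) scale numbered 148 (1.24%) between the knockouts and 76 (0.683%) between the WT groups.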
